A study of Mus musculus with 135 samples.

Results

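The genes described here are 9 genes of the interferon response, *Ifnar1*, *Ifngr1*, *Stat2*, *Irf9*, *Irf1*, *Irf2*, *Irf7*, *Ifitm1* and *Ifitm3*. They were named by symbol, and all 9 were present among the 15181 genes of the read count table. Their levels were followed through single haematopoietic stem cells (HSCs) from 2 mice, a young one aged 2 to 3 months and an old one aged 20 to 25 months. Both mice were C57BL/6 and carried the Vwf-eGFP reporter, a bacterial artificial chromosome transgene in which regulatory sequence of *Vwf* drives a green fluorescent protein. The cells were bone marrow cells sorted as 7AAD-, Lin-, Sca-1+, c-Kit+, CD150+ and CD48- (the labels name no sort on the reporter), and each cell was 1 library made on a C1 microfluidic chip. The comparison asks which gene expression changes accompany ageing of HSCs.

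Interferons are secreted antiviral and immune signals. The type I interferons bind a receptor made of IFNAR1 and IFNAR2, and interferon gamma, the type II interferon, binds one made of IFNGR1 and IFNGR2; both receptors signal through JAK kinases to STAT proteins, and the type I receptor acts through STAT2, which forms the complex ISGF3 with IRF9. ISGF3 binds the interferon-stimulated response element (ISRE), STAT dimers bind the gamma-activated sequence (GAS), and interferon regulatory factors (IRFs) bind ISRE-like elements: IRF1 activates them, IRF2 competes with it, and IRF7 amplifies type I interferon production. IFITM1 and IFITM3 are membrane proteins that restrict virus entry. In the bone marrow, HSCs respond to both interferon types, acute exposure can bring quiescent HSCs into cycle, and *Irf2* is known for protecting HSCs from chronic type I interferon signalling.

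The count table held 61 young and 74 old cells, of which the 52 young and 62 old that passed the study's limits on mapped reads, mitochondrial reads and genes detected were used, unless all cells are named. In these, 273236 to 5688706 reads per young cell (median 2798990) and 276316 to 4086659 per old cell (median 2116024) were counted on genes. Among the HSC markers, *Kit* was expressed in 49 young and 61 old cells and *Hlf* in 49 and 55, whereas *Slamf1*, which encodes the CD150 used for sorting, was expressed in only 9 and 15, and *Fgd5* in 6 and 14. Expression of *Xist* was found in 50 young and 8 old cells, and that of any of 4 Y-linked genes in 2 and 58. These genes point to a female young and a male old mouse, though the labels name no sex. Age therefore cannot be told apart from the mouse, its sex and the capture run. No test between ages was possible, and the cells of an age describe 1 mouse.

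The stretches of the promoters that match the letters of a response element are shown first, because ISREs and GASs are the elements that the factors of the pathway bind. Whether these stretches carry interferon signals was not tested. A window from 250 bases before to 50 bases after the RefSeq start of each of the 9 genes (GRCm38.p6, the assembly of mm10 used for the reads) was searched on both strands for the ISRE letters GAAANNGAAA and the GAS letters TTCNNNGAA. *Irf1* and *Irf9* have 2 such windows each and the other genes 1. An ISRE was found for 3 of the 9 genes and a GAS for 4, against 3.70% and 8.50% of 11229 counted genes with a window, and 3.44% and 8.30% of all 32851 windows of the mouse. Capitals mark the matches, and each stretch is written 5′ to 3′ on the strand of its gene. The stretch of *Ifitm3* (chr7:141010715-141010743, minus strand) begins just inside the transcript and holds a GAS between a pair of ISREs, with the second ISRE overlapping the GAS. The stretch of *Irf2* (chr8:46739495-46739549, plus strand) holds an ISRE followed by a GAS. The stretch of *Stat2* (chr10:128270256-128270305, plus strand) holds an ISRE read on the opposite strand. The stretches of *Irf1* (chr11:53769904-53769952, plus strand) and *Ifnar1* (chr16:91485209-91485219, plus strand) hold 1 GAS each, that of *Ifnar1* lying across the start.
Ifitm3: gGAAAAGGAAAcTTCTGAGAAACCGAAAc
Irf2: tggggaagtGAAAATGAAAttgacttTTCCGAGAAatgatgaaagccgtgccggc
Stat2: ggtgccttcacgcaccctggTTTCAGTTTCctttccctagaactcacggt
Irf1: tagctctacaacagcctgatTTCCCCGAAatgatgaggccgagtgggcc
Ifnar1: gTTCACGGAAg
A match is a run of letters and not evidence of binding. Neither set of letters was in the windows of *Ifngr1*, *Irf7*, *Irf9* and *Ifitm1*.

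Between the old and the young mouse, the largest shifts among the 9 genes were in a pair of transcription factors with opposing activity. The activator *Irf1* was higher in old cells by 1.60 on the log2 scale and was expressed in 41 of 62 old against 17 of 52 young cells, and its competitor *Irf2* was lower by 1.71. *Ifngr1* was higher by 1.09 and *Ifitm3* by 0.95, whereas *Ifnar1*, *Stat2*, *Irf7*, *Irf9* and *Ifitm1* differed by less than 0.5 in either direction. Here the level of a gene is log2(CPM + 1), CPM being its reads scaled to a total of 1000000 reads counted on genes in that cell, a difference is the mean level of the old cells minus that of the young, and a cell expressed a gene where its level was above 2.

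Of the 9 genes, 7 were higher in old cells, against 46.2% of the 15014 genes with a read. Of the 9, 2 were higher by at least 1, that is past 2-fold, which 3.91% of all genes were, and 1 was lower by at least 1, which 4.49% of all genes were. All 9 were among the 9374 frequent genes, those that at least 10% of cells expressed, of which 6.24% were higher and 6.98% lower by that much, and 45% were higher by any amount. The 9 genes had a median difference of 0.38, and all genes one of -0.02. The plot of single-cell levels shows how far the cells of an age spread around these means.

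**Figure D1:**
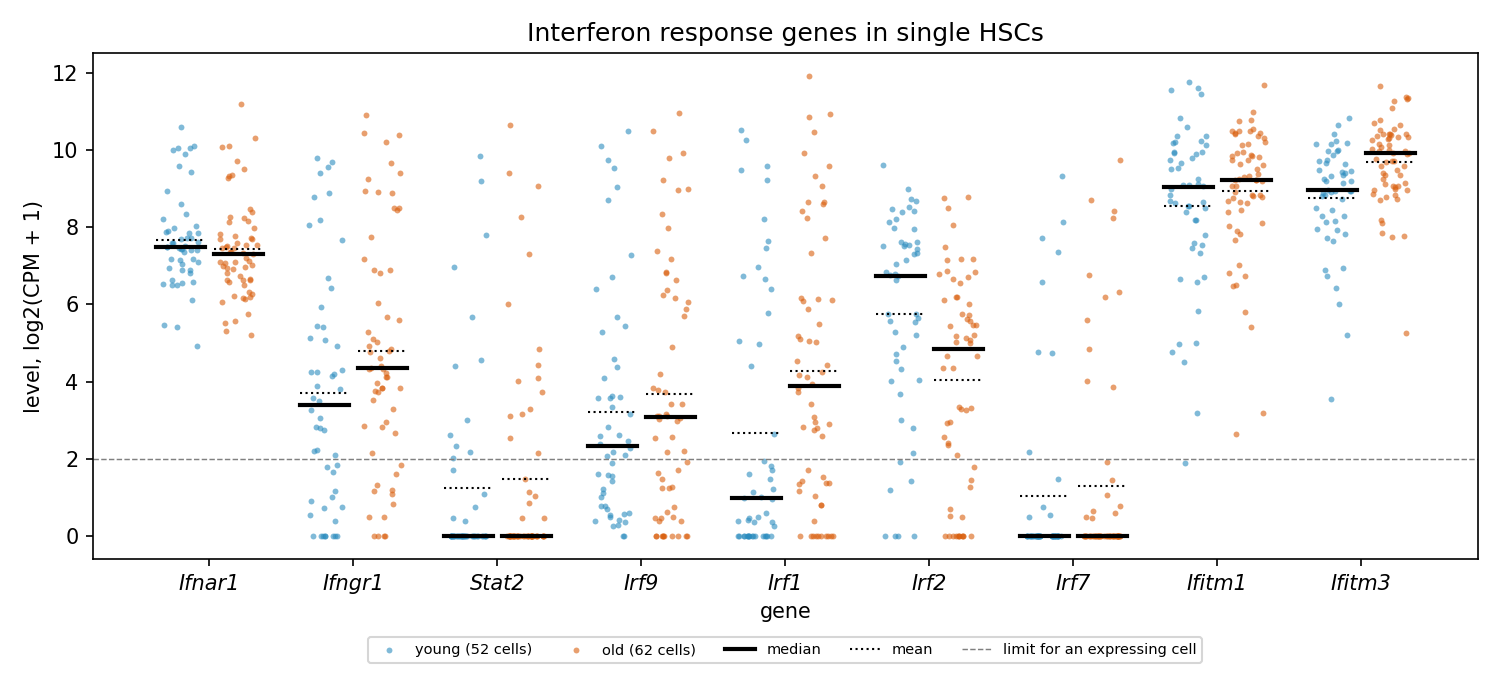
Level of each of the 9 genes, log2(CPM + 1), in single HSCs of the young (52 cells) and the old mouse (62 cells). Each point is a cell, the solid bar is the median, the dotted bar the mean and the dashed line the limit above which a cell expressed the gene. *Ifnar1*, *Ifitm1* and *Ifitm3* form 1 band per age, *Stat2* and *Irf7* lie at 0 in most cells, and the median of *Irf1* goes from 0.97 in young to 3.89 in old cells while that of *Irf2* goes from 6.74 to 4.83.

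The receptor genes were first compared. *Ifnar1* (chr16:91485032-91510523), the type I receptor chain, had expression in all 52 young and all 62 old cells, with levels of 4.92 to 10.60 and a median of 7.48 in young and 5.20 to 11.18 with a median of 7.31 in old cells. The mean levels of 7.66 ± 1.24 (SD, 52 cells) and 7.44 ± 1.27 (SD, 62 cells) differed by -0.22, less than the spread among the cells of either mouse. Every HSC examined thus had reads of this receptor chain, at a level that hardly moved.

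*Ifngr1* (chr10:19591949-19610229), the ligand-binding chain of the interferon gamma receptor, was more variable. Its level ran from 0 to 9.78 in young cells (median 3.39) and from 0 to 10.91 in old cells (median 4.35), with means of 3.71 ± 3.04 and 4.80 ± 3.04 (SD). It was expressed in 34 of 52 young cells (65.4%, 95% exact interval 50.9% to 78.0%) and 49 of 62 old cells (79.0%, 66.8% to 88.3%). The groups overlapped over almost their whole range and the intervals of the shares overlapped, while the mean CPM was 104 in young and 190 in old cells. The higher old level therefore combined a larger share of cells with a difference of 0.51 among the cells that expressed the gene.

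The partner chains were detected in fewer cells. *Ifnar2* was expressed in 28 young and 24 old cells, with mean levels of 3.30 and 2.34, and *Ifngr2* in 14 and 16, with mean levels of 1.42 and 1.53. Both type I receptor chains were expressed in 28 young and 24 old cells, and both interferon gamma receptor chains in 10 and 15. The kinase *Jak1*, which serves both receptors, was expressed in 51 and 58 cells (mean levels 8.19 and 7.72), *Jak2* of the interferon gamma receptor in 24 and 33, and *Tyk2* of the type I receptor in 6 and 10. The partner chains and *Tyk2* were thus detected in fewer cells than the member receptor chains.

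*Stat2* and *Irf9*, which act together in ISGF3, differed little with age. *Stat2* (chr10:128270498-128292853), the STAT specific to type I signalling, had a median level of 0 at both ages and reached 9.85 in 1 young and 10.65 in 1 old cell. It was expressed in 12 of 52 young (23.1%, 12.5% to 36.8%) and 16 of 62 old cells (25.8%, 15.5% to 38.5%), with mean levels of 1.25 ± 2.50 and 1.48 ± 2.70 (SD). A single cell held 46.7% of the summed CPM of the young and another 46.4% of that of the old cells, so the mean CPM of 38 and 56 rests on few cells.

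*Irf9* (chr14:55603985-55610030), the DNA-binding subunit of ISGF3, had levels of 0 to 10.50 in young (median 2.34) and 0 to 10.96 in old cells (median 3.08). Its mean levels of 3.22 ± 2.96 and 3.68 ± 3.25 (SD) differed by 0.46, and 30 young (57.7%, 43.2% to 71.3%) and 38 old cells (61.3%, 48.1% to 73.4%) expressed it. A read or more was counted in 50 young and 52 old cells, so many cells held a few reads below the limit. Of its exon bases, 3.97% are shared with *Rnf31* on the same strand, and reads there cannot be assigned to one of the genes.

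*Stat2* and *Irf9* were expressed together in 8 young and 10 old cells, *Irf9* alone in 22 and 28, *Stat2* alone in 4 and 6, and neither in 18 and 18. Most cells with *Irf9* thus had no detected *Stat2* at either age. These counts are those of transcripts caught at this depth in single cells, and no statement about protein follows from them.

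*Irf1* (chr11:53770014-53778374) was the member with the largest rise, and lay at place 171 from the top of the 15014 genes. Its level ran from 0 to 10.51 in young cells with a median of 0.97, and from 0 to 11.91 in old cells with a median of 3.89. The means were 2.68 ± 3.43 and 4.28 ± 3.46 (SD), a ratio of 3.03 on the scale of CPM + 1, and the mean CPM was 115 and 240. The ranges overlapped completely, but an old cell had the higher level in 64.9% of all pairs of 1 old and 1 young cell.

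The number of cells that expressed *Irf1* also differed. It was expressed in 17 of 52 young (32.7%, 20.3% to 47.1%) and 41 of 62 old cells (66.1%, 53% to 77.7%), the only member whose 2 intervals did not overlap. The interval of the old cells lay above that of the young for 0.899% of all genes and 1.35% of the frequent ones. With no cell left out, 21 of 61 and 46 of 74 cells expressed it. After each cell was thinned to 250000 reads, 20 young and 40 old cells did, and the intervals then overlapped (25.3% to 53% and 51.3% to 76.3%), as they also did with poscounts factors and where expression was defined as a read or as 10 CPM; they stayed apart in the other 5 of 9 settings. The share of old cells was the higher in each of them. Among the cells that expressed it, the mean level was 6.15 in old against 7.17 in young and the median CPM 43.7 against 123, whereas the mean CPM of these cells was 362 against 350, so no direction per expressing cell held on both scales.

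**Figure D2:**
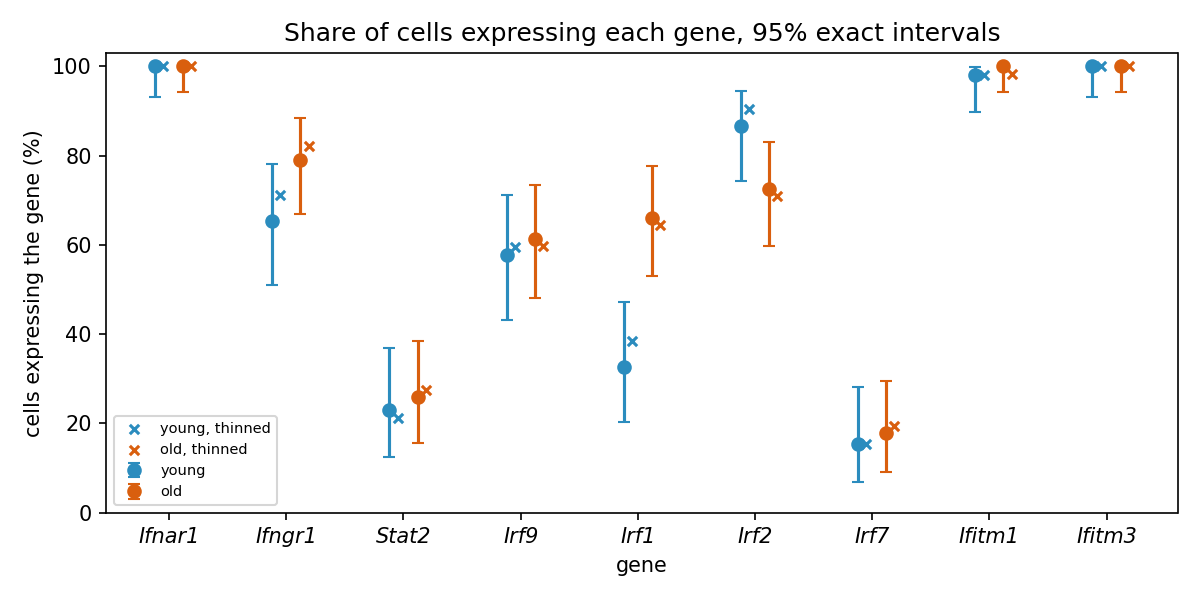
Share of cells (%) that expressed each of the 9 genes in the young (52 cells) and the old mouse (62 cells). Points are shares with 95% exact intervals for counting error only, and crosses are the shares after thinning each cell to 250000 reads. The intervals of *Irf1*, 20.3% to 47.1% and 53% to 77.7%, lie apart, and those of each of the other genes overlap; after thinning the *Irf1* intervals overlap too (25.3% to 53% and 51.3% to 76.3%).

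*Irf2* (chr8:46739745-46847458) moved the other way, at place 94 from the bottom of the 15014 genes. Its level ran from 0 to 9.61 in young cells with a median of 6.74, and from 0 to 8.79 in old cells with a median of 4.83. The means were 5.75 ± 2.66 and 4.04 ± 2.74 (SD), a ratio of 0.307 on the scale of CPM + 1, and the mean CPM was 144 in young and 59.7 in old cells. In 31.5% of cell pairs the old cell had the higher level. *Irf2* was common at both ages, in 45 of 52 young (86.5%, 74.2% to 94.4%) and 45 of 62 old cells (72.6%, 59.8% to 83.1%), and also among expressing cells its mean level was lower in old, 5.43 against 6.54.

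Because both factors bind the same element, their balance was compared within each cell, in CPM per kb of transcript. *Irf1* exceeded *Irf2* in 16 of 52 young cells (30.8%, 18.7% to 45.1%) and in 33 of 62 old cells (53.2%, 40.1% to 66%), and the intervals overlapped. The median log2 difference per kb, *Irf1* minus *Irf2*, was -2.79 in young and 0.43 in old cells. Both genes were expressed in 13 young and 31 old cells, *Irf2* alone in 32 and 14, and *Irf1* alone in 4 and 10. Above the limit, most young cells thus expressed *Irf2* without *Irf1*, although 35 of the 52 young cells had at least 1 read of *Irf1*.

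*Irf7* (chr7:141263183-141266499), the amplifier of type I interferon production, was at 0 in 40 young and 43 old cells and had a median of 0 at both ages. It reached 9.32 in young and 9.74 in old cells and was expressed in 8 of 52 (15.4%, 6.88% to 28.1%) and 11 of 62 (17.7%, 9.20% to 29.5%). The mean levels of 1.04 ± 2.45 and 1.29 ± 2.64 (SD) differed by 0.25, which is small beside the spread. The highest cell held 44.3% of the summed CPM in young and 37.4% in old cells.

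The effector genes were the most abundant of the 9. *Ifitm3* (chr7:141009590-141010744) was expressed in every cell, with levels of 3.55 to 10.82 (median 8.95) in young and 5.27 to 11.65 (median 9.91) in old cells. The means were 8.75 ± 1.40 and 9.70 ± 1.07 (SD), a difference of 0.95 and a ratio of 1.93, and the mean CPM was 592 and 1033. The cells overlapped, but the old cell was the higher in 71.8% of cell pairs, the largest such share among the 9 genes.

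*Ifitm1* (chr7:140967429-140969827), its neighbour on chromosome 7, gave no clear direction. Its levels were 1.90 to 11.77 (median 9.03) in young and 2.65 to 11.67 (median 9.23) in old cells, and it was expressed in 51 of 52 and 62 of 62 cells. The mean level was higher in old by 0.38, from 8.55 ± 2.13 to 8.94 ± 1.71 (SD), but the mean CPM was 756 in young and 752 in old cells. *Ifitm2*, another gene of the family, had mean levels of 8.74 and 8.70. *Ifitm7*, expressed in 8 young and 11 old cells, had mean levels of 1.15 and 1.25. The shift in this family was therefore seen for *Ifitm3* and not shared by *Ifitm2*, although 48.3% of the 51-base windows of *Ifitm2* are also in other transcripts, against 9.71% for *Ifitm3* and 6.01% for *Ifitm1*.

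Per kb of transcript, the scale on which genes can be ranked, the 9 genes fell into a high and a low tier. In young cells the median CPM per kb was 730 for *Ifitm3* (quartiles 418 and 1205), 590 for *Ifitm1* (215 and 1112), 45.4 for *Ifnar1* (30.9 and 65.1), 42.4 for *Irf2* (7.31 and 78.1), 4.49 for *Ifngr1*, 1.37 for *Irf9*, 0.45 for *Irf1* and 0 for *Irf7* and *Stat2*. In old cells it was 1417 for *Ifitm3* (791 and 1961), 680 for *Ifitm1* (405 and 1231), 40.4 for *Ifnar1* (25.2 and 62.6), 11.1 for *Irf2* (0.77 and 28.3), 9.16 for *Ifngr1*, 6.48 for *Irf1*, 2.52 for *Irf9* and 0 for *Irf7* and *Stat2*. At both ages the quartile ranges of *Ifitm1* and *Ifnar1* lay apart, and those of the other neighbours in the order overlapped, so that no neighbours within the low tier are separated from the spread, although *Ifnar1* lay above the quartile ranges of *Irf9*, *Irf7* and *Stat2* at both ages. By the mean CPM per kb *Irf1* went from the fifth place in young (53.8) to the third in old (112) and *Irf2* from the fourth (57.6) to the seventh (23.9). In 29 of 52 young and 47 of 62 old cells *Ifitm3* exceeded *Ifitm1* per kb, 55.8% (41.3% to 69.5%) and 75.8% (63.3% to 85.8%).

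A young cell expressed between 4 and 8 of the 9 genes, with a median of 6, and an old cell between 3 and 9, with a median of 6.5. At least 6 were expressed in 31 young and 43 old cells, and all 9 in 0 and 2. After thinning, the medians were 6 and 6.5. The median count per cell was thus close at both ages, and the mean count was 5.79 in young and 6.23 in old cells. The share of expressing cells rose most for *Irf1* (33.4 points) and fell only for *Irf2* (-14.0 points).

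Over the cells of an age, the levels of the 9 genes were hardly related. The 36 pairs had Pearson r of -0.35 to 0.29 with a median of 0.05 over 52 young cells, and of -0.27 to 0.34 with a median of 0.01 over 62 old cells, which share a mouse and a capture run and differ in depth. The pair *Ifitm1* and *Ifitm3* had the highest r at both ages, 0.29 and 0.34, and *Irf9* and *Ifitm1* the lowest in young cells (-0.35), where in old cells r was -0.05. *Irf1* and *Irf2*, which moved apart between the mice, had r of -0.04 and 0.19 within them. By rank (Spearman rho) the values for this pair were -0.14 in young and 0.18 in old cells. No clear inverse relation was thus seen over cells. Because only 17 of 52 young cells expressed *Irf1*, these values cannot exclude one.

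**Figure D3:**
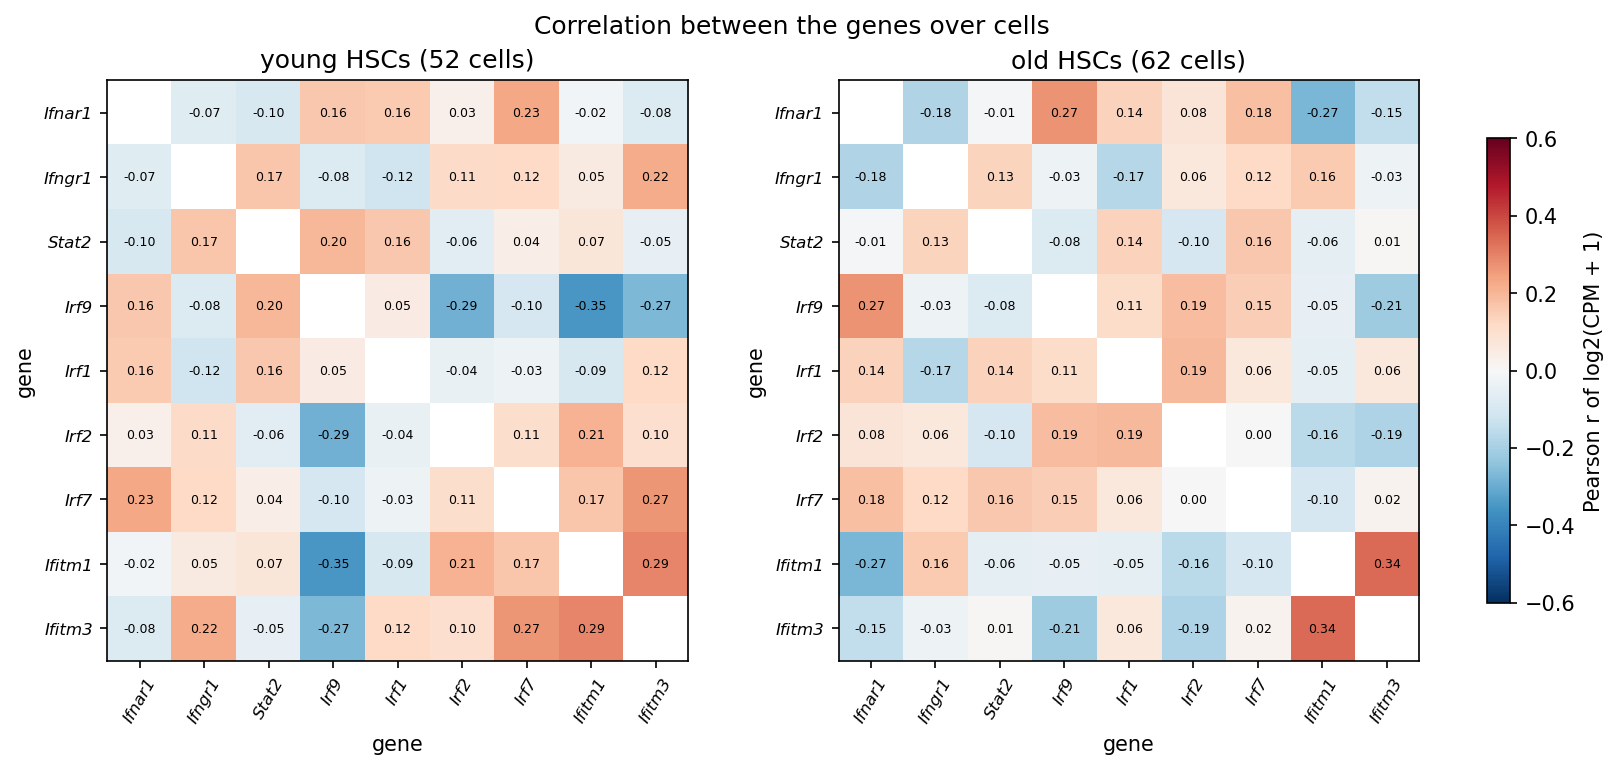
Pearson r between the levels of each pair of the 9 genes over 52 young (left) and 62 old cells (right), as a description with no test. Most of the 36 pairs lie near 0, with medians of 0.05 and 0.01, and the pair *Ifitm1* and *Ifitm3* has the highest value on both sides.

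The genes whose levels were most like those of the members were sought among 9373 frequent genes, by Pearson r over the 114 cells after the mean of each age had been subtracted. They were *Rmi2* for *Ifnar1* (r = 0.46), *Pak2* for *Ifngr1* (0.35), *Esr1* for *Stat2* (0.42), *Zgpat* for *Irf9* (0.36), *Cenpk* for *Irf1* (0.32), *2610005L07Rik* for *Irf2* (0.35), *Fam204a* for *Irf7* (0.37), *Ptplad2* for *Ifitm1* (0.44) and *Npm1* for *Ifitm3* (0.40). The next in order for *Ifitm3* were *Rps3a1* (0.39) and *Btf3* (0.36), and *Npm1*, *Rps3a1* and *Btf3* take part in ribosome formation or translation. For *Ifitm1* they were *Txnip* (0.35) and *Rplp1* (0.33). For the receptors they were *Prkrir* and *Cwc25* (*Ifnar1*), and *Wbscr27* and *Copb1* (*Ifngr1*). For *Stat2* they were *Nudcd1* and *Setdb1*, and for *Irf9* *1700110I01Rik* and *Plcb4*. For the other factors they were *Rpap3* and *Rcsd1* (*Irf1*), *Pilra* and *Gpr171* (*Irf2*), and *Prkag1* and *Gm5577* (*Irf7*). None of the interferon genes was among the 3 most like any member, and values of this size are weak in sparse counts.

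Several traits of the cells differed between the mice and are given beside these levels. At least 1 of the 4 cell cycle genes *Ccna2*, *Ccnb1*, *Cdk1* and *Cdc25c* was seen in 27 of the young and 13 of the old cells. Within the young mouse, *Irf2* had a mean level of 6.80 in the 25 cells without and 4.77 in the 27 cells with such a gene, and within the old mouse 4.26 in 49 and 3.21 in 13 cells. *Irf2* was thus higher in the cells without cell cycle genes at both ages, and in these the difference between the mice was -2.53. *Irf1* went from 2.06 without to 3.25 with cell cycle genes in young cells and from 4.51 to 3.41 in old cells. In the cells without, *Irf1* was expressed in 5 of 25 young (20.0%, 6.83% to 40.7%) and 34 of 49 old cells (69.4%, 54.6% to 81.7%), a difference in level of 2.44, and in the cells with them in 12 of 27 and 7 of 13.

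Other members also varied with these genes within a mouse. In old cells *Ifngr1* had a mean level of 4.40 without and 6.31 with them, and *Stat2* one of 1.21 and 2.46, with 10 of 49 and 6 of 13 cells expressing it. In young cells *Ifngr1* had 3.32 and 4.07, and *Stat2* 1.09 and 1.40. Both genes thus had the higher mean in cells with cell cycle genes at both ages, but the SDs over cells were 2.28 to 3.47. The shares of young cells did not follow, with *Ifngr1* in 17 of 25 without and 17 of 27 with such genes. *Stat2* was expressed in 6 of 25 and 6 of 27 of these young cells, and *Ifngr1* in 38 of 49 and 11 of 13 old cells. In the cells without cell cycle genes *Ifitm1* was lower in old by 0.23, with means of 9.08 and 8.85. *Irf7* was expressed in 11 of the 49 old cells without and in 0 of the 13 with them, which allows a share of up to 23.1%, and in 3 of 25 and 5 of 27 young cells.

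The mean level of 8 immediate-early genes had a median over cells of 3.86 in young and 6.94 in old cells, and that of 8 platelet-lineage genes 1.22 and 4.33. Within an age, r between *Irf1* and the immediate-early mean was 0.23 in young and -0.01 in old cells, and between *Irf1* and the platelet-lineage mean -0.09 and -0.13. For *Ifitm3* these were 0.16 and -0.04, and -0.04 and 0.06, and for *Ifngr1* 0.24 and 0.24, and 0.06 and 0.10. The part of these programmes in the differences between the mice was not tested. Of the markers of other cells, 4 platelet genes were expressed, at least 1 of them, in 18 young and 35 old cells (summed 0 to 477 and 0 to 2623 CPM), 2 markers of plasmacytoid dendritic cells in 5 and 11 (0 to 259 and 0 to 7.15 CPM), and 3 erythroid markers in 6 and 1 (0 to 1459 and 0 to 15.3 CPM), with *Hba-a1* at 0 throughout. Of 6 granulocyte and macrophage markers at least 1 was expressed in 44 young and 46 old cells (0 to 1811 and 0 to 1564 CPM), mostly *Lyz2* (43 and 43 cells), of 2 T and NK cell markers in 25 and 27 (0 to 356 and 0 to 991 CPM), of 1 B cell marker in 12 and 16 (0 to 1108 and 0 to 797 CPM), and of 3 markers of endothelium and stroma in 52 and 62 (16.7 to 208 and 10.4 to 371 CPM), all of them through *Lepr*. The part of these cells or transcripts in the differences was not tested.

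To place the 9 genes within the pathway, 96 other interferon genes with a read were described by list. Their median difference was 0.18, and 62 were higher and 34 lower in old cells. Of the 96, 19 were higher and 1 lower by at least 1. Among all 15014 genes with a read, 46.2% were higher, 3.91% higher by at least 1 and 4.49% lower by at least 1. Among the frequent genes these shares were 45%, 6.24% and 6.98%. The 19 effectors best known for their induction by interferon gamma, such as guanylate-binding proteins and immunity-related GTPases, had a median of 0.92, with 17 higher and 2 lower, and 8 higher by at least 1. *Iigp1*, an immunity-related GTPase, had the largest difference, from a mean level of 2.11 with 15 of 52 cells in young to 5.42 with 44 of 62 cells in old. *Gbp7* went from 5.99 to 8.09 and from 39 to 57 cells. Of *Tgtp1* and *Gbp6*, 91.3% and 90.0% of the 51-base windows are in other transcripts too, and without both the median of the other 17 was 0.92 with 7 past 2-fold.

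The 39 effectors best known from type I interferon had a median of 0.09, with 24 higher and 15 lower. Of the 39, 8 were higher and 0 lower by at least 1. Among all genes with a read, 46.2% were higher, 3.91% higher by at least 1 and 4.49% lower by at least 1. *Oasl2*, of the oligoadenylate synthetase family, went from 20 to 45 cells and by 1.88, and *Rtp4* by 1.60, while *Oas3* (-0.78) and *Ifi27* (-0.71), an oligoadenylate synthetase and an interferon-induced mitochondrial protein, had the lowest differences among frequent genes. Between *Irf7* and the mean of these effectors r was 0.49 within the young mouse and 0.01 within the old mouse. The value of 0.49 was the largest of any member at either age and rests on few cells. *Irf7* was at 0 in 40 of 52 young and 43 of 62 old cells. For *Ifngr1* r was 0.26 and 0.29. No difference between the lists was tested.

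**Figure D4:**
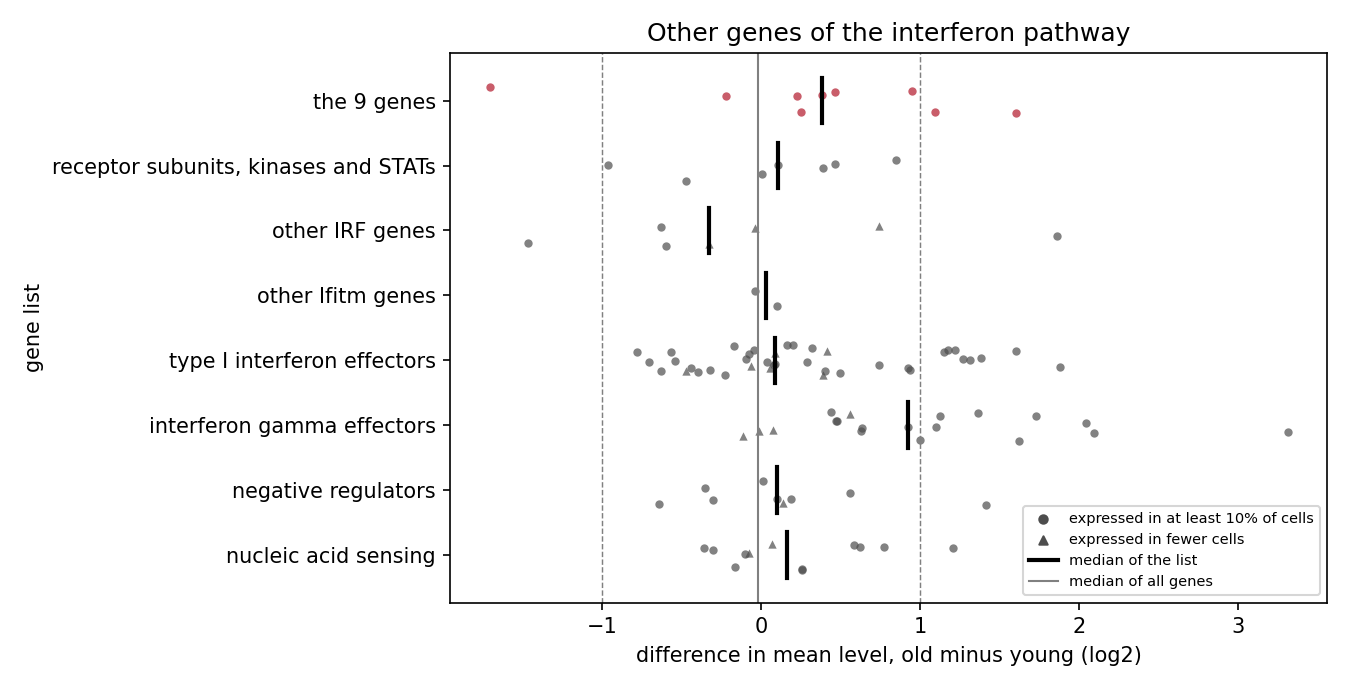
Difference in mean level, old minus young (log2), of the 9 genes (red) and of other interferon genes by list (grey). Each point is a gene, circles are frequent genes (10% of cells or more) and triangles rarer ones, black bars are list medians, the grey line is the median of all genes (-0.02) and dashed lines mark 2-fold. The list of interferon gamma effectors lies furthest to the right, with a median of 0.92.

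Among the remaining lists, the other receptor chains, kinases and STATs had a median of 0.11 over 7 genes with none past 2-fold, where *Stat3*, a STAT of cytokine receptors, was highest (0.85) and *Ifnar2* lowest (-0.97). The other genes of the IRF family and of IRF2-binding proteins had a median of -0.33 over 7 genes. *Irf2bp2*, which encodes a corepressor that binds IRF2, and its relative *Irf2bpl* moved in opposite directions, *Irf2bp2* from a mean level of 4.81 to 3.34 and from 43 to 36 cells, and *Irf2bpl* from 0.54 to 2.40 and from 5 of 52 (9.62%, 3.20% to 21%) to 26 of 62 cells (41.9%, 29.5% to 55.2%). *Irf2bp1*, of the same list, differed by -0.63 and was expressed in 10 young and 4 old cells. *Irf2*, *Irf2bp2* and *Irf2bp1* were thus lower in the old mouse. Of 9 negative regulators (median 0.10), *Usp18*, which dampens the type I receptor, went from 6 to 22 cells (1.41), and *Socs3* differed by 0.56, *Pias1* by -0.64 and *Ptpn2* by -0.36. Of 12 genes of nucleic acid sensing (median 0.16), *Tlr4* was higher by 1.20 and *Tbk1* by 0.77, and *Mavs* was lower by 0.36 and *Mb21d1*, which encodes cGAS, by 0.30. Of 9 interferon genes listed as ligands, *Ifnz* was the only one found under its symbol, expressed in 2 young and 0 old cells.

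The promoter windows of these lists were searched as well. Of 12 interferon gamma effectors with a window, 9 held an ISRE and 5 a GAS, of 26 type I effectors 12 and 7, and of the 11229 counted genes with a window 415 and 955. The member promoters printed above belong to *Ifitm3* and *Irf1*, which were higher in the old mouse, to *Irf2*, which was lower, and to *Stat2* and *Ifnar1*, which differed little. Among these members, matches were thus found in genes that were higher and in genes that were lower. Whether an element goes with a direction was not tested.

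The differences of the members were recomputed under 10 other settings of cells, scaling and scale. Across these, *Irf1* stayed between 1.06 and 2.44, *Irf2* between -2.53 and -1.27, *Ifngr1* between 0.86 and 1.45 and *Ifitm3* between 0.80 and 1.41. *Irf9* (0.28 to 0.89), *Irf7* (0.16 to 0.76) and *Stat2* (0.06 to 0.56) were higher in old and *Ifnar1* (-0.32 to -0.11) lower under every one of them, and only *Ifitm1* changed sign (-0.23 to 0.51). The plot of settings shows that the cells without cell cycle genes and the smaller pseudocount widened the *Irf1* difference, and that the ratio of mean CPM narrowed it.

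**Figure D5:**
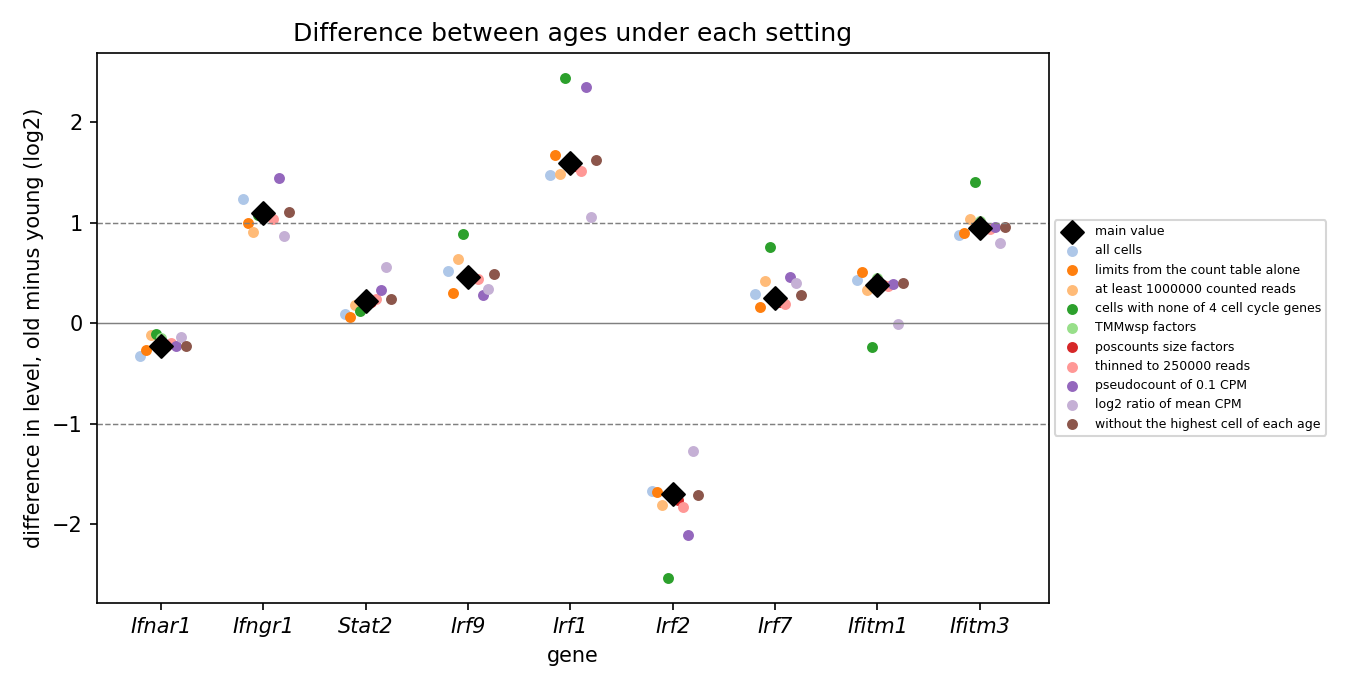
Difference in mean level, old minus young (log2), of each of the 9 genes as reported (black diamond) and under 10 other settings (coloured points); dashed lines mark 2-fold. *Irf1* stays above 1 and *Irf2* below -1 in every setting, *Ifngr1* and *Ifitm3* lie on both sides of 1, and *Ifitm1* changes sign.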

How the data were processed

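Single HSCs were captured on C1 chips, amplified with the SMARTer chemistry and made into Nextera XT libraries, sequenced as single 51-base reads. Per the labels and the study's methods, the authors mapped reads to mm10 with TopHat2 2.0.10, kept 1 alignment per read, and used rpkmforgenes to count them per RefSeq gene. The deposited values are raw counts without normalization for 15181 genes in 135 cells. Strand use is not stated, and the reads carry no molecular identifiers. The intervals are on numbers of cells and cover counting error only, because with 1 mouse per age they leave out variation between mice. The single alignment kept for reads with several matches can move reads between near-identical genes, and counts for overlapping exons cannot be divided.

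From the counts, CPM per cell and log2(CPM + 1) were computed for all genes. The 114 cells used had at least 500000 mapped reads, at most 10% mitochondrial reads and at least 3000 genes, limits taken with their per-cell values from the study; 21 cells were left out. No 2 cells had identical counts (0 pairs). No doublet caller was run. Shares have 95% Clopper-Pearson intervals and a share of 0 allows up to 3 cells. With 1 mouse per age there was no test. The members and lists were chosen with earlier results of these data known. Named were all members, and per list the 2 largest rises and falls among frequent genes (10% of cells or more). Per member, the 3 most similar genes were named. Outside this rule, *Ifngr2*, *Jak2* and *Ifnz* were added as partners or sole list members after their values were seen. So were *Irf8*, *Xist* and single markers. Promoter sequences are from RefSeq (GRCm38.p6); all 9 members matched. TMMwsp factors of edgeR 4.0.16 and poscounts factors of DESeq2 1.42.0 served as alternatives. Simulated counts were used to check the thinning and the sign of the difference for genes changed by a known fold. These factors were not checked in this way. The software was R 4.3.3 and Python 3.11.15 with numpy 2.4.6, pandas 2.3.3, matplotlib 3.10.9 and scipy 1.17.1.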

Additional observations from a re-analysis of the deposited data

How the results depend on the processing

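Of 90 recomputed differences of the members, 86 moved by less than 1.5-fold and none of those of 1 or more changed direction. The 4 that moved further were *Irf1* (2.44 in cells without cell cycle genes and 2.35 with a pseudocount of 0.1 CPM), *Irf2* (-2.53) and *Ifitm1* (-0.23) in cells without cell cycle genes. Of 162 recomputed shares, 147 stayed within the interval of the reported share. The interferon gamma effectors higher by at least 1 numbered 8, and 14 by the log2 ratio of mean CPM, on which 3613 genes were higher and 3549 lower by at least 1, against 587 and 674; their range over the other settings was 7 to 10. In the cells without cell cycle genes, 1122 genes were higher and 621 lower by at least 1. A pseudocount of 0.1 CPM gave 1232 and 1632. No scaling moved the median of all genes by over 0.1. No paired analysis was possible because each age is 1 mouse and the cell numbers pair no cells. No replicate could be left out for the same reason. At this depth a gene at 0 in a cell may have been missed, which bears most on *Stat2*, *Irf7* and the receptor partners.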

Other observations

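The cells left out of the comparison numbered 9 young and 12 old. *Ifnar1* and *Ifitm3* were expressed in all of them, *Ifitm1* in 8 and 12, *Irf1* in 4 and 5, *Irf2* in 6 and 8, *Ifngr1* in 6 and 8, *Irf9* in 6 and 8, *Stat2* in 2 and 2, and *Irf7* in 0 and 1. *Mx1*, an antiviral GTPase gene known for its induction by type I interferon, was expressed in 4 of 52 young cells and listed at 0 in all 62 old cells, which allows a share of up to 4.84%. *Rsad2*, which encodes the antiviral protein viperin, was expressed in 7 young and 20 old cells, and *Isg15*, a ubiquitin-like modifier, in 7 and 7; these 3 genes were chosen after their values were seen. *Irf8*, a factor of dendritic cells and monocytes, was expressed in 3 young cells and 1 old cell.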
